A study of Homo sapiens with 11 samples.

Results

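Long non-coding RNA (lncRNA) genes expressed in MDA-MB-231 cells were followed from their transcript counts to the macroH2A1.1 (mH2A1.1) peaks at their starts. MDA-MB-231 is a human triple-negative breast cancer cell line, derived from a pleural effusion. A gene was taken when it lay on chromosomes 1 to 20, had the GENCODE gene type lncRNA, and had a mean raw count of at least 50 over both WT libraries. Of 2603 lncRNA genes on these chromosomes, 150 met the rule, 956 had counts below it, and 1497 had no count in either WT library. RNA-seq had been made from 2 WT libraries, treated with the transfection reagent without siRNA, and from 2 mH2A1.1 KD libraries, transfected with an siRNA against mH2A1.1 at 11 nM and collected at day 3. The WT control thus lacked a control siRNA, so the loss of mH2A1.1 and the transfection of an siRNA cannot be told apart. ChIP-seq had been made from untreated cells, with 1 library for mH2A1.1 and 1 for total mH2A1. The members were chosen on the WT counts, so their WT levels are a description, and WT counts are also the reference of every fold change.

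LncRNA genes make transcripts that are spliced and often polyadenylated like mRNAs but are not known to be translated into long proteins. Some act in the nucleus, as MALAT1 and NEAT1 do in speckles and paraspeckles, some act in the cytoplasm, and some serve mainly as hosts whose introns or exons are processed into small nucleolar RNAs (snoRNAs) or microRNAs (miRNAs). Many start beside, or run antisense to, a protein-coding gene. mH2A1.1 is a splice isoform of the histone variant macroH2A1, encoded by MACROH2A1, and carries a macro domain that binds NAD-derived metabolites.

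The 4 RNA-seq libraries differed in depth and in composition. Counts on chromosomes 1 to 20 totalled 9172956 and 7347007 in WT and 5210361 and 2305456 in KD. KD replicate 2 stood apart from the rest. In it, genes with GC-rich exons were over-represented relative to the mean of the 4 libraries (Pearson r = 0.71 across genes between the deviation and exon GC content), against r of -0.66, -0.54 and -0.13 in WT replicate 1, WT replicate 2 and KD replicate 1. SnoRNA genes held 1344 counts per 1000000 (CPM) in KD replicate 2 and 229 to 235 in the other libraries, and genes of the type misc_RNA held 9599 against 1256 to 1753. Of the receptor genes, ESR1 and PGR had no count in any library, while ERBB2 had 79.9 and 80.2 CPM in WT and 86.9 and 128 in KD. VIM, the mesenchymal marker, had 2315 and 2506 CPM in WT and 2978 and 4726 in KD (here and for single genes CPM are scaled with TMM factors). Of the epithelial genes, CDH1 had 0.378 to 2.5 CPM and EPCAM 19.9 to 24.2 CPM, while KRT8 had 496 and 555 CPM in WT and 862 and 1364 in KD, KRT18 344 and 380 against 515 and 808, and KRT19 260 and 287 against 486 and 656. DESeq2 called the 3 keratins higher in KD (log2 fold changes 1.06, 0.85 and 1.04, adjusted p = 0.00513, 0.0342 and 0.00236). It also called VIM higher (0.66, adjusted p = 0.0986). edgeR called none of these genes in its main fit (adjusted p = 0.193, 0.193 and 0.175 for the keratins and 0.198 for VIM). With offsets for exon length and GC content, edgeR called KRT8 (0.99, adjusted p = 0.0935) and KRT19 (0.86, adjusted p = 0.0734). It did not call KRT18 (0.72, adjusted p = 0.121) or VIM (0.68, adjusted p = 0.155) there. Without KD replicate 2, the edgeR log2 fold changes were 0.72, 0.51 and 0.83 for the keratins and 0.31 for VIM. COL1A1, of fibroblasts, had 9.68 and 8.68 CPM in WT and 18.3 and 33.1 in KD and was called higher by DESeq2 too (1.43 ± 0.40, adjusted p = 0.0165), and by edgeR without KD replicate 2 (0.99 ± 0.23, adjusted p = 0.000241). PECAM1, of endothelium, had 3.05 to 5.48 CPM. The part of these markers in the members' differences was not tested. MACROH2A1, whose gene-level count does not separate its isoforms, had 385 and 394 CPM in WT and 274 and 300 CPM in KD. Both KD values lay below both WT values, but the difference did not pass the test (log2 fold change -0.44 ± 0.17 (SE), adjusted p = 0.204, edgeR).

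The members spanned a wide range of levels. The median member had a mean WT count of 112.5, 36 members reached 200, and 8 reached 1000, so that most members rested on few reads. Scaled by library total and by kilobases of annotated exon (RPKM), the median WT level was 2.64 and the highest was 1266. MALAT1, a nuclear speckle transcript, held this highest level, with 1367 and 1166 in WT and 1024 and 649 in KD. NORAD, a cytoplasmic RNA that binds Pumilio proteins, followed with 151 and 146 in WT and 166 and 113 in KD. NEAT1, the scaffold of paraspeckles, had 82.3 and 64.7 in WT and 51.7 and 49.9 in KD. The next were SNHG16 with 40.2 and 41.3 in WT, GAS5 with 28.1 and 24.8, and SNHG1 with 26.7 and 23.7. The 4 remaining genes of the 10 highest, FGD5-AS1, SNHG3, MANCR and ZDHHC12-DT, lay between 17.3 and 23.4 in the WT libraries, and neighbours in their order differed by less than the gap between the WT libraries of MANCR. GAS5 and SNHG1 overlapped in WT, while the 4 genes above them were each separated from the next in both WT libraries. Exon lengths came from a later annotation than the counts, so levels per length are approximate.

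**Figure D1:**
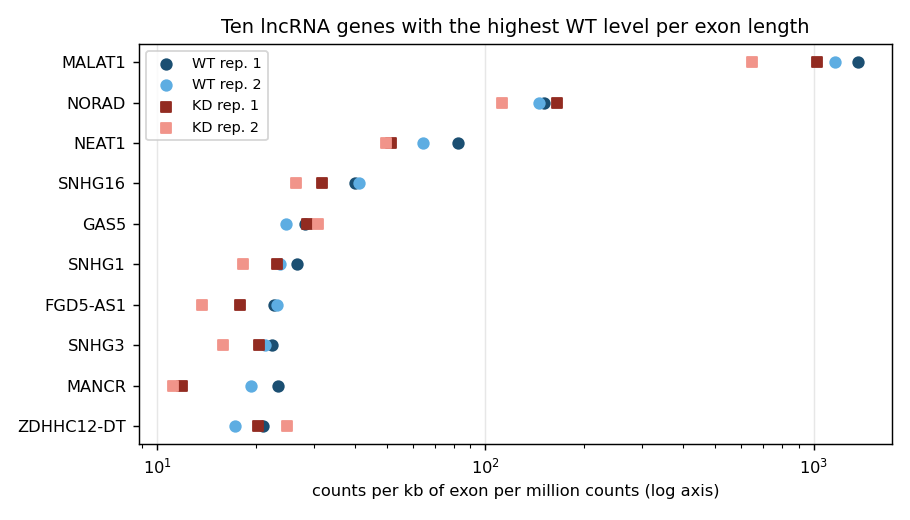
Level of the 10 lncRNA genes with the highest WT level per exon length, in RPKM, counts scaled by library total and kilobases of annotated exon (horizontal log axis), 1 point per library (circles, WT; squares, KD). MALAT1 lies between 649 and 1367, and no other gene passes 166.

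At the threshold, ZNF407-AS1 (65 and 35 WT counts) and UCA1 (48 and 52) were the last genes inside. GLIDR and TRAF3IP2-AS1, each with 55 and 44 WT counts, were the first outside.

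The first question was what share of the transcript counts these genes held with and without mH2A1.1. Members took 2.08% and 1.81% of the counts in WT and 1.62% and 1.16% in KD. Both KD shares lay below both WT shares (1.95% ± 0.19 against 1.39% ± 0.33, SD, n = 2 each), and the exact two-sided permutation test gave p = 0.333, the smallest that 2 against 2 libraries allow. MALAT1 alone held 1.43% and 1.22% of all counts in WT and 1.07% and 0.677% in KD. Without it, the shares were 0.657% and 0.598% in WT and 0.553% and 0.479% in KD, the same order with a smaller gap. The difference between the group means was -0.56 percentage points, -0.33 without KD replicate 2 and -0.79 without KD replicate 1. MALAT1, NEAT1 and NORAD together made up 73.7% to 81.4% of the members' counts.

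The main comparison asked which members differed between KD and WT. Counts of all genes on chromosomes 1 to 20 were fitted with edgeR's quasi-likelihood test (10943 genes passed the low-count filter, all 150 members among them), and a call needed both an adjusted p (Benjamini-Hochberg) below 0.1 and more than a 1.5-fold difference. With edgeR, 0 members and 0 of all genes were called (background 0%); the lowest adjusted p of a member was 0.175. At an unadjusted p under 0.05 and over 1.5-fold, 21 members (14%) were lower in KD against 9.39% of all genes tested, and 5 (3.33%) were higher against 9.49%. DESeq2 on the same genes gave an adjusted p to 51 members and called 7 of them lower (13.7%, background 5.78%) and 0 higher (background 5.57%). Both KD libraries lay below both WT libraries, in CPM, for 59 members (39.3%, background 32.3%) and above them for 31 (20.7%, background 32.5%). Without KD replicate 2, edgeR called 18 members lower (12.0%, background 5.31%) and 3 higher (2%, background 2.74%), and with length and GC offsets as well 12 lower (8%, background 3.71%) and 3 higher (2%, background 2.53%). That fit assumes that the lone KD library varies like the WT libraries. Nothing in the labels says that the replicates were separate cultures, so p-values measure the spread between these libraries.

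As a group the members leaned lower in KD. Their median log2 fold change was -0.16 (quartiles -0.48 and 0.18), with 95 below 0 and 55 above, beside a median of 0.01 over all genes tested and 0.00 over 9332 protein-coding genes with the same WT minimum. With offsets fitted to each library's trend with exon length and GC content, the members' median was -0.04 and that of all genes 0.09. Part of the trend with GC remained after these offsets (r = 0.35 over all genes tested). Without KD replicate 2, the medians were -0.10 and 0.00. Over the 63 lncRNA genes with a KD mean of at least 50, the median was -0.05. No lncRNA gene below the WT minimum reached that KD mean, so all 63 are members that passed both minimums. They are thus members with high KD counts, not a set free of the WT rule. The rule for members selects on WT counts, the reference of the fold change, and its part in the lean was not tested. The lowest member was PTPRG-AS1, antisense to a receptor tyrosine phosphatase gene, with counts of 61 and 61 in WT and 21 and 1 in KD (log2 fold change -1.33 ± 0.52, adjusted p = 0.203, edgeR). The highest was DBH-AS1, with 59 and 48 in WT and 44 and 42 in KD (1.03 ± 0.41, adjusted p = 0.206), whose excess lay mostly in KD replicate 2 (19.9 CPM, against 8.31 in KD replicate 1 and 6.21 and 6.31 in WT).

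The 7 members called lower by DESeq2 were MIR23AHG, OTUD6B-AS1, MIR100HG, DLEU2, THAP9-AS1, MANCR and NUTM2A-AS1. In each of them both KD libraries lay below both WT libraries, which follows in part from their choice as lower calls. MIR23AHG, MIR100HG and DLEU2 are hosts of miRNAs. The mature miRNAs named in the next sentences lie on the same strand within these genes (RefSeq, GRCh38.p14) and are shown because these hosts carry the DESeq2 calls. The seed, bases 2 to 8, is in capitals, 5′ to 3′. The mature miRNAs themselves were not measured by these libraries.
MIR23AHG, hsa-miR-23a-3p: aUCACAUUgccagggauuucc
MIR23AHG, hsa-miR-27a-3p: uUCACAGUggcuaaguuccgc
MIR23AHG, hsa-miR-24-3p: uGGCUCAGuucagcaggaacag
MIR100HG, hsa-miR-100-5p: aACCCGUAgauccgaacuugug
MIR100HG, hsa-let-7a-5p: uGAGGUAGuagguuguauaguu
MIR100HG, hsa-miR-125b-5p: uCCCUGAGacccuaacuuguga
DLEU2, hsa-miR-15a-5p: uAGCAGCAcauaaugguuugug
DLEU2, hsa-miR-16-5p: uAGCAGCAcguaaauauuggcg

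The miR-15a and miR-16 arms in DLEU2 share the seed AGCAGCA, and the arms of the other hosts shown differ from it and from each other in their seeds. In all, 14 members held 46 mature miRNAs on their strand. Another member, MIR4458HG, holds miR-4458 with the let-7a seed GAGGUAG, and its own CPM were 5.36 and 6.84 in WT and 8.12 and 10.4 in KD (log2 fold change 0.56 ± 0.29, adjusted p = 0.266, edgeR).

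MIR23AHG (ENSG00000267519, chromosome 19, 13823880 to 13842928, minus strand, GRCh38) was the strongest of the 7. It had 717 and 498 counts in WT and 152 and 64 in KD, which is 75.4 and 65.5 CPM against 28.7 and 30.2 CPM. The KD libraries were close to each other and well below the WT pair. edgeR gave a log2 fold change of -1.26 ± 0.20 (SE, adjusted p = 0.175), and DESeq2 gave -1.28 ± 0.29 with an adjusted p of 0.0016. It was the only member called by edgeR with length and GC offsets (-1.35 ± 0.15, adjusted p = 0.0344), where 1.4% of all genes were called lower and 1.15% higher. Its exons hold 57.5% GC, in the range where KD replicate 2 gained counts. MIR23AHG runs antisense to ZSWIM4, a protein-coding gene with exons in the same stretch, which had 11.5 and 13.0 CPM in WT and 16.4 and 23.2 CPM in KD (0.65 ± 0.26, adjusted p = 0.204, edgeR).

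MIR100HG (chromosome 11, 122028325 to 122556721, minus strand) had 150 and 127 CPM in WT and 92.8 and 49.6 in KD (DESeq2 -0.95 ± 0.31, adjusted p = 0.0466). KD replicate 2 was the lower of the KD libraries, and without it the edgeR log2 fold change was -0.58, just under 1.5-fold. DLEU2 (chromosome 13, 49956670 to 50125720, minus strand), which lies in a region deleted in leukaemia, had 37.7 and 28.7 CPM in WT and 21 and 13.2 in KD (DESeq2 -0.93 ± 0.36, adjusted p = 0.0935). Its antisense neighbour TRIM13 had 21.9 and 23.1 CPM in WT and 16.8 and 10.4 in KD (-0.66 ± 0.26, adjusted p = 0.208, edgeR). The other hosts of the MIR name group were not called by either tool. MIR4435-2HG had 142 and 136 CPM in WT and 158 and 132 in KD, and MIR17HG, the host of the miR-17 to miR-92a cluster, had 13.5 and 10.4 against 11.9 and 6.14.

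The remaining calls were 3 antisense genes and MANCR, which overlaps no coding gene. OTUD6B-AS1, which shares exonic sequence in antisense with the deubiquitinase gene OTUD6B, had 34.8 and 34.3 CPM in WT and 19.8 and 11.3 in KD (DESeq2 -1.11 ± 0.36, adjusted p = 0.0441). OTUD6B itself had 33.7 and 28.8 CPM in WT and 29.1 and 27.9 in KD (-0.13 ± 0.20, edgeR). THAP9-AS1 had 35.0 and 35.1 CPM in WT and 22.3 and 14.7 in KD (DESeq2 -0.90 ± 0.34, adjusted p = 0.0861). MANCR (chromosome 10, 4581295 to 4678216), an RNA linked to mitosis in breast cancer cells, had 71 and 58.5 CPM in WT and 36.8 and 38.3 in KD (DESeq2 -0.80 ± 0.28, adjusted p = 0.0661). NUTM2A-AS1 had 50.7 and 45.2 CPM in WT and 28.0 and 28.4 in KD (DESeq2 -0.78 ± 0.30, adjusted p = 0.0861). Its near copy NUTM2B-AS1 had 19 and 14.3 against 11.0 and 5.20 CPM, and reads may be split between the pair.

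**Figure D2:**
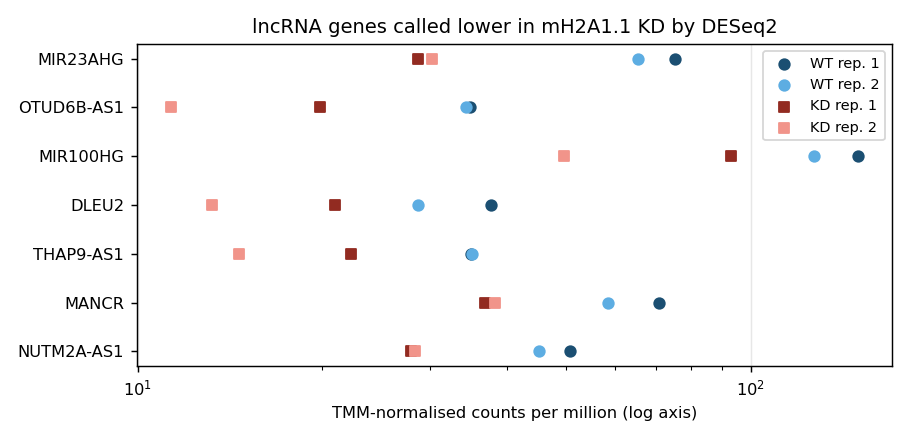
The 7 lncRNA genes called lower in KD by DESeq2, in TMM-normalised CPM (horizontal log axis), 1 point per library (circles, WT; squares, KD). In each gene both squares lie to the left of both circles, and MIR23AHG lies at 65.5 or more in WT and at 30.2 or less in KD.

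Of these 7, 6 were among the 50 members with the lowest exon GC content (36.0 to 42.3%) and 1, MIR23AHG, was among the 50 with the highest (48.2 to 63.7%). With length and GC offsets, 2 of the 7 were still called by DESeq2, MIR23AHG (-1.37 ± 0.24, adjusted p = 6.22e-06) and MIR100HG (-0.66 ± 0.23, adjusted p = 0.0464). OTUD6B-AS1, DLEU2 and THAP9-AS1 were given no adjusted p in that fit and so could not be called; their log2 fold changes there were -0.75, -0.70 and -0.68, past 1.5-fold. MANCR was at -0.59 (adjusted p = 0.107) and NUTM2A-AS1 at -0.42 (adjusted p = 0.327). Without KD replicate 2, edgeR called 6 of the 7, MIR100HG being the exception, and with offsets as well it called 4, namely MIR23AHG, MANCR, NUTM2A-AS1 and OTUD6B-AS1. All 7 had a negative log2 fold change in every fit that was run. They were chosen as lower calls, and all fits use the same libraries or a part of them, so the shared sign is no separate evidence.

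Across the members, the fold change followed exon GC content. The median log2 fold change was -0.43 over the 50 members of lowest GC, -0.15 over the middle 50 and 0.15 over the 50 of highest GC. With offsets it was -0.14, -0.04 and 0.08, and without KD replicate 2 it was -0.26, -0.06 and -0.01. Pearson's r between fold change and GC was 0.46 over the 150 members and 0.63 over all genes tested. With offsets it was 0.16 over the members and 0.35 over all genes, and without KD replicate 2 it was 0.29 and 0.32. These correlations are across genes that share the same libraries, and the trend was weaker, but present, without KD replicate 2.

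**Figure D3:**
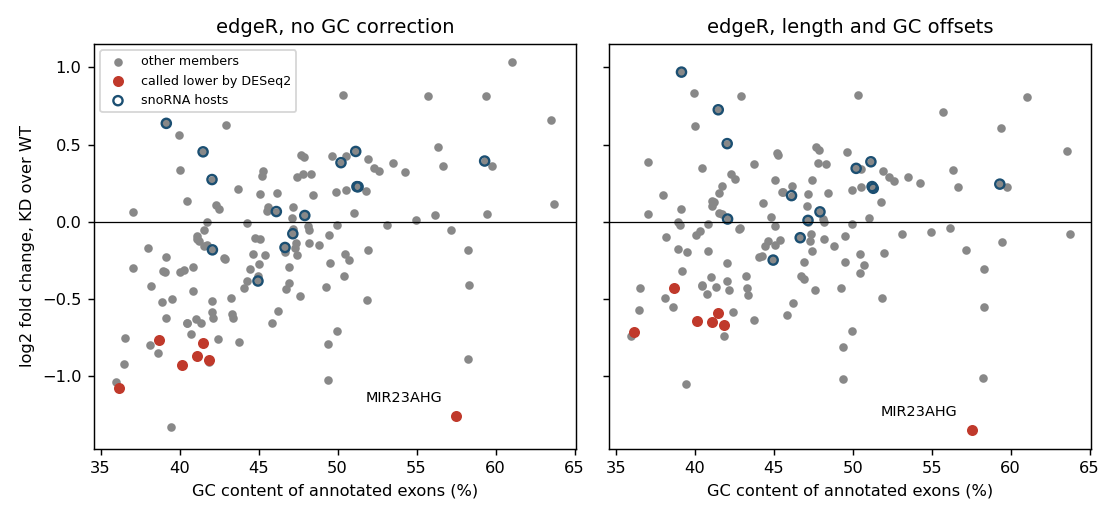
Log2 fold change of KD over WT (vertical axis) against the GC content of annotated exons in percent (horizontal axis) for the 150 members, without correction (left) and with length and GC offsets (right). Filled red points are the 7 genes called lower by DESeq2 and open circles are snoRNA hosts. The upward slope at left (r = 0.46) is weaker at right (r = 0.16), and MIR23AHG stays low in both.

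The 2 nuclear body RNAs were lower in KD in both libraries without passing the test. MALAT1 had 13763 and 11750 CPM in WT and 10519 and 7378 in KD (log2 fold change -0.51 ± 0.23, adjusted p = 0.233, edgeR). NEAT1 had 1808 and 1423 CPM in WT and 1158 and 1238 in KD (-0.43 ± 0.20, adjusted p = 0.231). With offsets the log2 fold changes were -0.27 and -0.23. MALAT1 was at -0.27 without KD replicate 2 and at -0.80 without KD replicate 1, and NEAT1 at -0.25 without WT replicate 1. Removal of position duplicates caps the counts of very abundant RNAs, and what that did to MALAT1 was not tested.

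SnoRNA host genes leaned the other way from the members as a whole. These hosts are transcribed for the snoRNAs in their introns, which guide the modification of ribosomal RNA, and several of their RNAs start with a pyrimidine tract, as the mRNAs of ribosomal proteins do. Of 37 listed hosts 14 were members, and 0 were called by edgeR (0 at an unadjusted p under 0.05 and over 1.5-fold) or by DESeq2. Their median log2 fold change was 0.23, with 10 above 0 and 4 below, beside -0.16 for all members, and it stayed at 0.22 with offsets. Without KD replicate 2 it was 0.07, with 9 above 0. In KD replicate 2, where snoRNA genes as a class held 1344 CPM, the hosts' median log2 ratio to WT was 0.38, and in KD replicate 1, with 233 CPM, it was 0.07. The part of the snoRNA reads in the counts of their hosts was not tested.

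SNHG8 had 20.5 and 24.6 CPM in WT and 27.6 and 44.4 in KD (log2 fold change 0.64 ± 0.27, adjusted p = 0.219, edgeR). SNHG5 had 43.2 and 44.1 CPM in WT and 46.9 and 74.7 in KD (0.45 ± 0.25, adjusted p = 0.293). In both genes both KD values lay above both WT values and KD replicate 2 was the highest. DESeq2 with length and GC offsets called both higher, SNHG8 at 1.03 ± 0.34 (adjusted p = 0.0378) and SNHG5 at 0.75 ± 0.29 (adjusted p = 0.0836). They were its higher calls among the 31 members to which it gave an adjusted p (6.45%), where it called 6.94% of all genes higher, beside 2 lower calls (6.45%, background 3.21%). Neither was past 1.5-fold without KD replicate 2, where edgeR gave SNHG8 0.30 (0.46 with offsets) and SNHG5 0.11 (0.22 with offsets).

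GAS5, a growth-arrest transcript, had 134 and 118 CPM in WT and 139 and 166 in KD (0.27 ± 0.19, adjusted p = 0.378). SNHG12 had 13.9 and 15.8 in WT and 14.9 and 27.9 in KD. SNHG16 was the lowest of the group, with 224 and 231 in WT and 181 and 166 in KD (-0.38 ± 0.17, adjusted p = 0.229). SNHG1 and SNHG3 were also below 0, at -0.18 and -0.17, and ZFAS1 was at -0.08.

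**Figure D4:**
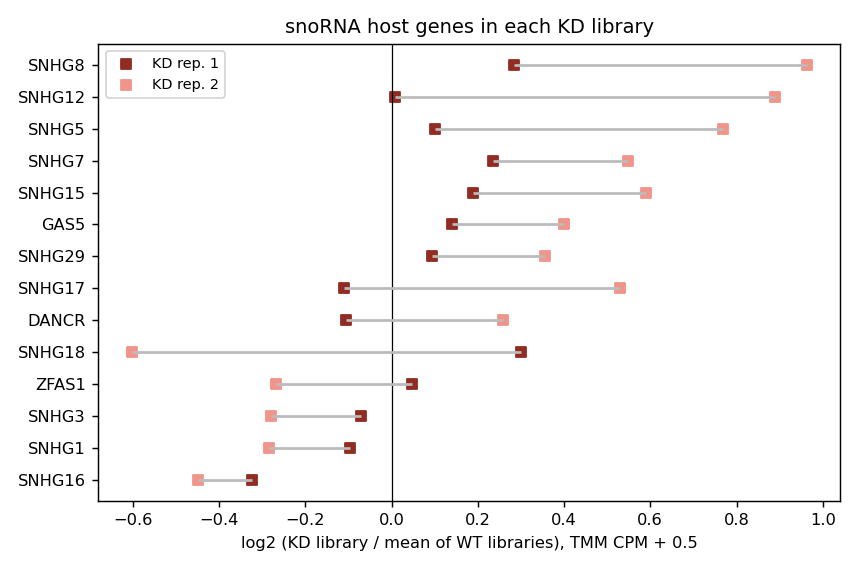
Log2 ratio of each KD library to the mean of the WT libraries (horizontal axis, TMM CPM plus 0.5) for the 14 snoRNA host genes, sorted by fitted fold change, with a line joining the KD libraries of a gene. KD replicate 2 lies further from 0 than KD replicate 1 in most hosts, and the medians are 0.38 and 0.07.

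RefSeq promoter entries were held for 13 of the 14 hosts. The 30 bases around the annotated start, 10 before and 20 from it on, are shown for hosts with and without a starting pyrimidine tract. The tract was defined as a C at the first base followed by at least 4 bases that are C or T, read on the strand of the gene, and it is in capitals.
SNHG5: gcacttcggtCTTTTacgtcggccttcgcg
ZFAS1: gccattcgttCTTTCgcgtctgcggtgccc
SNHG12: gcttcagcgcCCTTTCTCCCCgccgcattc
SNHG8: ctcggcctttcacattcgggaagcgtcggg

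These windows lie at chr6:85678714-85678743 (minus strand), chr20:49278632-49278661, chr1:28581854-28581883 (minus strand) and chr4:118278752-118278781 (GRCh38.p14). A tract was found at 4 of 13 hosts, SNHG18 being the fourth, at 7 of 162 member entries (4.32%) and at 1429 of all 35116 entries (4.07%). SNHG8, with the highest fold change of the hosts, has none at this annotated base. RefSeq and GENCODE starts differ for several hosts, and no match says only that these letters are not at this base.

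The other listed genes did not pass the test either. Of 12 members listed for breast cancer and migration, 6 were above 0 and 6 below, with a median log2 fold change of -0.09, and DESeq2 called 1, MIR100HG. LINC00511 had 30.5 and 32.7 CPM in WT and 41.8 and 43.5 in KD (0.43 ± 0.19, adjusted p = 0.226, edgeR). CYTOR had 104 and 102 in WT and 130 and 122 in KD (0.30 ± 0.17, adjusted p = 0.305), and its near copy MIR4435-2HG, with which it may share reads, is given above. AFAP1-AS1 had 66.2 and 69.7 in WT and 78 and 78.9 in KD, and PVT1, beside MYC, had 39.0 and 35.8 against 41.4 and 38.3. LUCAT1, a stress-induced RNA, had 14.7 and 14.3 in WT and 11.1 and 4.73 in KD (-0.73 ± 0.34, adjusted p = 0.240).

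Among genes listed for genome stability, p53 and the cell cycle, 3 were members. NORAD was at 0.00 ± 0.20, and its sign turned with the scaling and with offsets (0.23). LINC-PINT, a p53-induced RNA, had 55.8 and 38.3 CPM in WT and 43.3 and 35.4 in KD (-0.24 ± 0.25), and DLEU2 is given above. Of the imprinted and HOX genes, KCNQ1OT1, the antisense RNA of an imprinted cluster, had 106 and 95.7 in WT and 127 and 107 in KD (0.21 ± 0.19), and HAGLR, in the HOXD cluster, had 20.7 and 13.3 against 11.3 and 8.98 (-0.71 ± 0.31, adjusted p = 0.221). The 3 members listed for stress, hypoxia and inflammation had a median of -0.30.

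The members' place beside coding genes was compared next. By the annotation, 85 members overlapped exons of a protein-coding gene in antisense, 7 were antisense without exon overlap, and 10 overlapped a gene on the same strand. Of the members without such an overlap, 12 started head to head with a coding gene and 36 did not. Overlapping members can start head to head with a coding gene too, as OTUD6B-AS1 does, and are not among the 12. A coding TSS lay within 500 bp of 38 members. The median log2 fold changes were -0.16, -0.30, -0.34, -0.07 and -0.07 in this order. Without the 93 members that shared exonic positions with a coding gene on either strand, the median was -0.09 over 57. The libraries were stranded, but the counting was described only by its default parameters, and protein-coding genes held 97.6% to 98.0% of counts, while an exchange of reads between overlapping partners was not tested.

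A member and its partner often differed. Over 99 pairs with a tested coding partner, 59 had the same sign of fold change (59.6%), and Pearson's r of the fold changes was 0.24, or 0.08 with offsets, across pairs that share the same libraries. VIM-AS1 had 13.0 and 13.2 CPM in WT and 10.2 and 9.45 in KD (-0.40 ± 0.23, adjusted p = 0.309). VIM, its partner that encodes vimentin, was higher in both KD libraries (0.68 ± 0.25, adjusted p = 0.198, edgeR) and was called higher by DESeq2. PTPRG, the partner of PTPRG-AS1, had 257 and 241 in WT and 281 and 283 in KD. AFAP1 and AFAP1-AS1 had like fold changes, 0.25 ± 0.17 and 0.21 ± 0.17.

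The last question was whether mH2A1.1 lay at the starts of these genes in WT cells. A member was counted when a peak came within 500 bp of its 5′ end. An mH2A1.1 peak was present at 69 of 150 members (46.0%, exact 95% interval 37.8 to 54.3%), and a common peak, an mH2A1.1 peak that also overlaps a total mH2A1 peak somewhere along its length, at 33 (22%, 15.7 to 29.5%). A total mH2A1 peak lay at 19 starts (12.7%, 7.80 to 19.1%), 14 of them with an mH2A1.1 peak. Among protein-coding genes with the same WT minimum the shares were 46.9%, 25.6% and 17.3%, each within the members' interval. Each antibody had 1 library, so the intervals cover the counting of genes only, and no test was made.

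LncRNA genes with fewer counts had fewer mH2A1.1 peaks. The share was 37.9% (34.8 to 41.0%) over the 956 genes below the minimum and 20.4% (18.4 to 22.6%) over the 1497 genes at 0 in WT. The share with a total mH2A1 peak did not follow this order, with 19.4% and 19.2%. Common peaks lay at 22.4% (19.8 to 25.2%) of the genes below the minimum, near the 22% of the members, and at 15.4% (13.6 to 17.4%) of those at 0. A coding TSS lay within 3 kb of 59 members, and mH2A1.1 peaks were at 47.5% of these and at 45.1% of the 91 others.

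**Figure D5:**
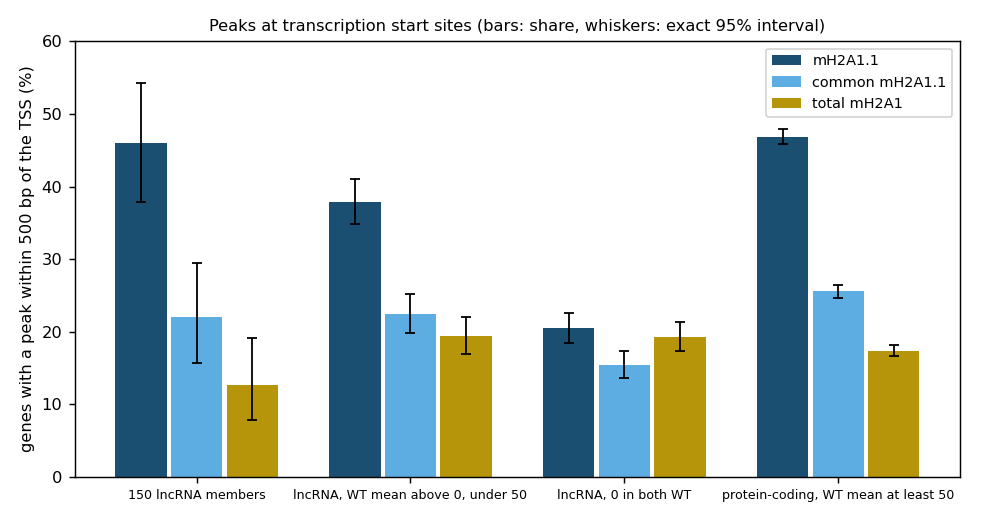
Share of genes with a peak within 500 bp of the TSS, in percent (vertical axis from 0), for the 150 members, other lncRNA genes by WT count, and protein-coding genes. Bars are shares and whiskers exact 95% intervals. The mH2A1.1 share is 46.0% in the members, 46.9% in protein-coding genes and 20.4% in lncRNA genes at 0.

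Peak widths at the members varied widely. mH2A1.1 peaks at member starts had a median width of 12000 bp, 23 were a single 3000 bp bin, and 5 exceeded 100 kb. The widest, 495000 bp, covered the start of SLCO4A1-AS1, whose CPM were 8.73 and 10.5 in WT and 8.50 and 12.3 in KD. MIR23AHG lay inside a common peak of 144000 bp (chromosome 19, 13770001 to 13914000), and MALAT1 inside one of 147000 bp (chromosome 11, 65451001 to 65598000). Neither start had a total mH2A1 peak within 500 bp. NEAT1 started in an mH2A1.1 peak of 33000 bp that was not common. The 6 other genes called by DESeq2 had no mH2A1.1 peak within 500 bp of the gene's 5′ end, nor had NORAD. MIR100HG had one within 1 kb and at another annotated transcript start, and NUTM2A-AS1 had one at another annotated start.

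Fold changes were then set beside the peaks. The median log2 fold change was 0.12 over the 33 members with a common peak, -0.20 over the 36 with an mH2A1.1 peak that was not common, and -0.17 over the 81 with none. For protein-coding genes the same medians were 0.29, -0.04 and -0.13. Exon GC content moved with the groups, with medians of 50.5%, 46.8% and 42.5% in the members. With length and GC offsets the members' medians were 0.13, -0.09 and -0.02, and without KD replicate 2 they were -0.01, -0.11 and -0.13. The gap between members with a common peak and those with none was 0.28 without correction, 0.14 with offsets, 0.12 without KD replicate 2 and -0.01 with both (medians of -0.06 and -0.06).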

How the data were processed

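Counts per gene and peak lists were used as deposited. Per the study's methods, the authors mapped reads of the stranded total RNA libraries to GRCh38 with STAR (2.5.1), removed reads of mapping quality under 10 and duplicates, and made the deposited raw counts with htseq-count at default parameters. Peaks of each antibody, deposited as BED intervals with scores of 0, were called by the authors against input with normR, 1 library per antibody. The ChIP-seq input and promoter capture Hi-C were not analysed here.

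Of 23167 identifiers, 23061 matched GENCODE release 44, which gave gene type, exons, GC content and TSS; the unmatched held 0.120% to 0.176% of counts. KD replicate 2 had almost no counts on chromosomes 21, 22 and X, so chromosomes 1 to 20 were fitted. edgeR (4.0.16) with TMM factors, its expression filter and quasi-likelihood test gave the main result, and DESeq2 (1.42.0) an alternative, each in R 4.3.3 over all genes; offsets were lowess trends of each library on exon length and GC. The edgeR and DESeq2 fits without offsets were also run on simulated counts. These lacked the GC trends of the real libraries, so that run does not show how the fits behave under such trends. CPM used TMM factors. Exact tests and Clopper-Pearson intervals came from scipy (1.17.1) and cover counting error only. The members and gene lists were chosen with earlier results of these data known. The genes named were listed members, the calls with smallest adjusted p (DESeq2 where edgeR made fewer than 5), the 10 highest levels, the 2 genes on each side of the minimum, MACROH2A1 and overlapping partners; DBH-AS1, MIR4458HG, NUTM2B-AS1 and SLCO4A1-AS1 were singled out after their values were seen. Alternatives are in the closing section.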

Additional observations from a re-analysis of the deposited data

How the results depend on the processing

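The number of members called depended on the fit. Against 0 lower and 0 higher in the edgeR fit, DESeq2 called 7 lower, edgeR without the low-count filter 20 lower (13.3%, against 7.44% of all genes) and 4 higher (2.67%, against 6.82%), edgeR with length and GC offsets 1 lower, DESeq2 with these offsets 2 lower and 2 higher, and counts thinned to the smallest library 1 lower (0.671%, against 0.660% of all genes). Added after the data were seen, DESeq2 on the whole table called 8 of 93 lower (8.6%, against 5.78%) and 2 higher (2.15%, against 4.43%), and edgeR with offsets but without KD replicate 2 called 12 lower and 3 higher. Leaving out a library gave 0 to 38 lower and 0 to 14 higher: 0 and 0 without either WT library, 38 and 14 without KD replicate 1 (25.3% and 9.33%, against 21.4% and 20.4% of all genes), and 18 and 3 without KD replicate 2, where the lone KD library is assumed to vary like the WT libraries. RLE factors, robust dispersion and the whole table in edgeR gave 0. The member sets chosen by KD counts, without exon overlap or with a WT minimum of 200 were read from the main edgeR fit. That fit called 0 of all genes, so these sets had to give 0 and say nothing on the choice of members. Replicate numbers were shared by WT and KD but only 2 pairs exist and nothing in the labels ties them (r of same-numbered deviations 0.25). With the replicate number as a block, 19 members were called lower (12.7%, against 10.3% of all genes) and 5 higher (3.33%, against 9.77%), and with the block and offsets (added) 12 and 8 (8% and 5.33%, against 4.08% and 7.30%).

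The members' median log2 fold change was negative in every fit, from -0.29 without KD replicate 1 to -0.04 with edgeR offsets. Leaving out a library gave -0.29 to -0.10, and the 63 members that also had a KD mean of at least 50 gave -0.05. MACROH2A1 stayed between -0.50 and -0.29, never past 1.5-fold. Its adjusted p was 0.00311 with DESeq2 on the whole table and 0.178 or more in the other edgeR and DESeq2 fits on all libraries. The difference in the members' share of counts was -0.56 percentage points, -0.11 without MALAT1, and -0.79 to -0.33 over left-out libraries. The mH2A1.1 share at the TSS was 58.0% with any transcript start and 36.0% with a peak midpoint within 5 kb (57.7% and 35.5% in protein-coding genes). The common share was 9.33% with the midpoint, 12.7% when at least 50% of the mH2A1.1 peak had to be covered, and 7.33% for stretches in both lists (11.5%, 15.5% and 12.9% in protein-coding genes). The causes of these differences were not tested.

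Of the 27 named genes that were followed over all fits, 7 turned sign in some fit, each with a main value within 0.25 of 0 on the log2 scale. The other named members were not followed in this way. Some of them turn sign too, as ZFAS1 (-0.078, and 0.0082 with edgeR offsets) and SLCO4A1-AS1 (0.050 and -0.134). NORAD (-0.00216) was 0.00134 with RLE factors, 0.228 and 0.214 with edgeR and DESeq2 offsets, 0.227 with block and offsets, -0.233 to 0.191 over left-out libraries, and 0.288 with offsets without KD replicate 2. SNHG1 (-0.183) was 0.0170, 0.00343 and 0.0148 with these 3 offset fits on all libraries. Without KD replicate 2 and with offsets, SNHG17 was -0.124 and DANCR -0.0706, and over left-out libraries they ranged from -0.107 to 0.524 and from -0.107 to 0.251. After thinning, DANCR was -0.0582 and PVT1 -0.0108. Over left-out libraries MIR4435-2HG ranged from -0.0764 to 0.188 and LINC-PINT from -0.499 to 0.0446. At these depths, members with few counts in KD replicate 2 cannot show small differences.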

Other observations

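LncRNA genes below the WT minimum were also examined. Of 956, 213 passed the edgeR filter, with 0 calls; at an unadjusted p under 0.05 and over 1.5-fold, 8 were lower in KD (3.76%, against 9.39% of all genes tested) and 14 higher (6.57%, against 9.49%). DESeq2 gave none of them an adjusted p. No lncRNA gene under the WT minimum reached a KD mean of 50 raw counts. Of the 1497 genes at 0 in WT, 77 had a count in a KD library, the highest summing to 9 counts over both. These are raw counts, and the KD libraries were shallower (5210361 and 2305456 counts, against 9172956 and 7347007 in WT). A KD mean of 50 therefore needed a higher level than a WT mean of 50, so its absence does not show that no such gene rose.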
